A study of Mus musculus with 12 samples.

Results

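The genes described here are 37 genes of glucose use and of the response to low oxygen, chosen by name. Of these, 35 have a row in the count tables, out of 19369 genes measured in whole tumours and 18574 measured in cells selected for the leukocyte surface protein CD45. Gapdh and Eno1 are not analysed here. By role the list holds 4 transporters of glucose and lactate (4 measured), 16 glycolytic enzymes (14 measured), 3 regulators of glycolytic flux (3 measured) and 14 targets of the hypoxia response (14 measured). A level is given as CPM, which is the count of unique molecular identifiers (UMIs) of a gene, summed over all cells of one annotated class in one library relative to all UMIs of that sum on the counts-per-million scale. A mean over the list is the mean of log2(CPM + 10) over the 35 measured genes.

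Glycolysis splits glucose into pyruvate in a fixed series of enzyme steps, and lactate dehydrogenase can turn the pyruvate into lactate, which leaves the cell through monocarboxylate transporters. When oxygen is plentiful, prolyl hydroxylases mark hypoxia-inducible factor (HIF) for destruction. When oxygen falls, HIF persists, binds short DNA sequences with the core ACGTG or GCGTG, and raises transcription of most glycolytic genes together with genes that limit mitochondrial work, acidify the surroundings or modify collagen. Solid tumours are known for poorly perfused regions in which these genes are active, and neutrophils are known to draw most of their energy from glycolysis.

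The cells came from 6 tumours grown from the 4T1 mouse line of triple-negative breast cancer. Single cells of that line founded the 5 clones E, M, EM1, EM2 and EM3, which the study places in epithelial, intermediate and mesenchymal states, and the remaining tumour was grown from the parental 4T1 population. All were implanted orthotopically into the mammary fat pad of female BALB/c mice 9 to 11 weeks old, after culture in RPMI medium with serum, and no group had a drug or a genetic change named in the labels. Each tumour was digested with collagenase A and hyaluronidase and gave 1 library of all cells (Total) and 1 library of cells taken with CD45 magnetic beads (CD45), so that 12 libraries were analysed. Each group is 1 tumour and each clone descends from a single cell, so differences between tumours have no replicate check and are given with 95% Poisson intervals that cover counting error only. Classes of cells within tumours were compared over the 6 tumours, each tumour serving as its own block. Those p-values set the difference between 2 classes of a tumour against its variation over these tumours of different lines. The test moderates that variation with information shared over all genes. A small p-value is therefore not a measure of the spread over the 6 tumours alone. The comparison of CD8 T cells rests on 5 tumours.

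The libraries held between 6709 and 13467 cells and between 28083101 and 122055131 UMIs, with medians of 1557 to 10042 UMIs per cell. Cell classes are the authors' annotation, made from the same cells by a method not given in the sources used here. Defining markers were checked by their summed level in each class. The tumour markers were Krt7, Krt8, Krt18, Krt19, Epcam, Cdh1, Cldn4 and the cytokine gene Csf3. These 8 had a median of 6675 CPM in tumour cells, from 3023 CPM in M to 15731 CPM in E. The median was 22033 CPM for 8 macrophage markers in macrophages of the Total libraries. It was 121330 CPM for 8 fibroblast markers in fibroblasts and 141710 CPM for 7 granulocyte markers in granulocytes. The medians were 6704 CPM for 7 endothelial markers in endothelial cells, 5248 CPM for 7 dendritic cell markers in dendritic cells, 4635 CPM for 7 T cell markers in T and NK cells and 2670 CPM for 5 B cell markers in B cells. In the CD45 libraries they were 4597 CPM for 5 NK cell markers in NK cells, and 7539 and 4259 CPM for 7 T cell markers in the Gzmb+ and Lef1+ CD8 subtypes. Of the 16-base droplet barcodes, Total and CD45 libraries of E and EM3, of EM1 and EM2, of M and of the parental tumour shared 818 to 1760 within these 4 sets, against 83.2 to 165 expected by chance. In the 12 pairs of libraries that shared whole barcodes, 84 to 189 were shared against 87.6 to 183 expected by chance, with the largest excess 161 against 136.7. Differences between lines of different sets cannot be told apart from differences between the sets, whereas E with EM3 and EM1 with EM2 lie within a set. The tumour cells annotated in the E tumour stand apart: 10.2% of them held a UMI of Ptprc, the CD45 gene, against 3.19% to 6.24% in the other tumours, and their granulocyte markers summed to 1314 CPM against 240 to 642 CPM. Values of E tumour cells below carry that limit.

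Over the whole list, granulocytes had the highest mean and B cells the lowest, in both kinds of library. In the Total libraries the mean log2(CPM + 10) of granulocytes ran from 6.83 to 7.11 over the 6 tumours with a median of 7.05. Fibroblasts had a median of 6.78 (6.55 to 6.90), tumour cells 6.74 (6.73 to 6.80), macrophages 6.63 (6.54 to 6.70), endothelial cells 6.62 (6.53 to 6.69), the joint class of T and NK cells 6.57 (6.45 to 6.67), dendritic cells 6.34 (6.201 to 6.53) and B cells 6.02 (5.79 to 6.27). The fibroblast range spans those of tumour cells, macrophages and endothelial cells in part or whole. Those of macrophages, endothelial cells, T and NK cells, dendritic cells and B cells all lie below that of tumour cells. Within the same tumour, tumour cells exceeded macrophages by a median of 0.16 (0.03 to 0.19, above 0 in 6 of 6 tumours) and fibroblasts by -0.04 (-0.14 to 0.18, above 0 in 2 of 6). In the CD45 libraries the order was granulocytes with 6.94 (6.68 to 7.04), cells annotated as T and myeloid hybrids with 6.72 (6.44 to 6.94, 5 tumours), macrophages with 6.60 (6.50 to 6.71), other myeloid cells with 6.49 (6.36 to 6.59), T cells with 6.44 (6.33 to 6.56), dendritic cells with 6.37 (6.24 to 6.46), NK cells with 6.16 (6.06 to 6.26) and B cells with 5.89 (5.40 to 6.13). Such sums do not tell apart fewer expressing cells and less RNA per cell.

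The 4 roles were not ordered alike across classes. The transporters were highest in granulocytes, with a role mean of 8.68 (8.45 to 8.88), and lowest in tumour cells, with 6.17 (5.84 to 6.29). The tumour cell range overlaps with those of endothelial cells, at 6.18 (5.99 to 6.55), dendritic cells, at 6.28 (5.92 to 6.36), and B cells, at 6.67 (5.88 to 6.88). Among the named classes the glycolytic enzymes were highest in tumour cells and macrophages, at 7.55 (7.09 to 7.55) and 7.46 (7.35 to 7.603), and the tumour cell range reaches down to 7.09 through the E tumour alone. The granulocyte range, at 7.36 (7.19 to 7.49), overlaps with both. Cells annotated as Unknown, summed in 3 tumours, had 7.54 (7.53 to 7.57). The regulators were highest in granulocytes, at 6.23 (5.96 to 6.38). That range overlaps with those of endothelial cells, at 5.87 (5.35 to 6.08), and fibroblasts, at 5.48 (5.08 to 6.04). B cells had the lowest regulator mean, at 4.49. The hypoxia targets were highest in fibroblasts, at 6.60 (6.31 to 6.77), and in tumour cells, at 6.50 (6.46 to 6.78), and lowest in B cells, at 5.57. The ranges of fibroblasts and tumour cells overlap with each other. Both also overlap with those of endothelial cells, at 6.49 (6.35 to 6.62), and granulocytes, at 6.41 (6.12 to 6.52).

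**Figure D1:**
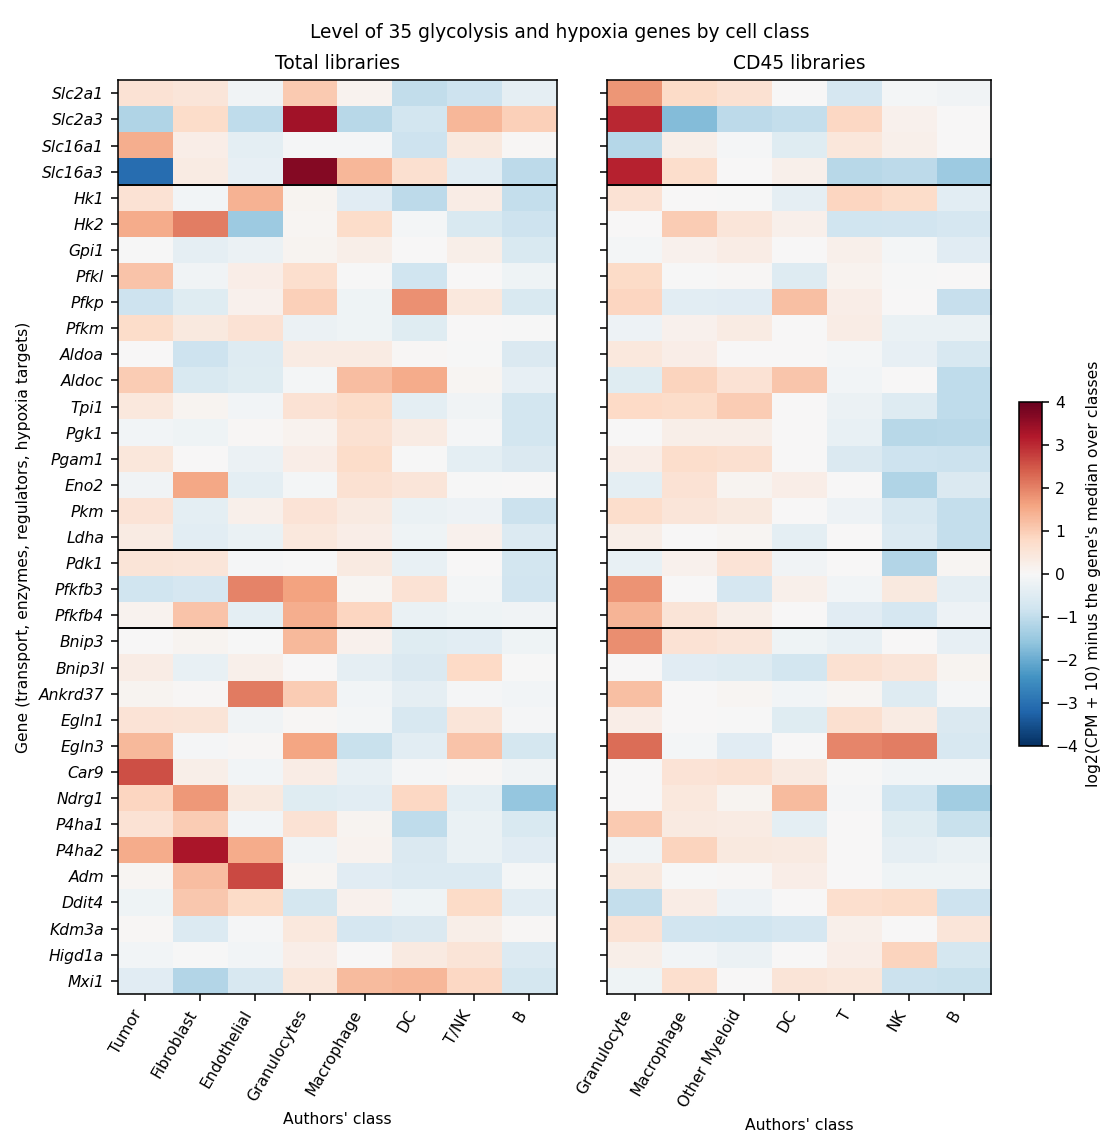
Each row is 1 of the 35 measured genes and each column an annotated class of the Total or CD45 libraries; the colour is the median over tumours of log2(CPM + 10) minus the gene's median over the classes shown. Slc2a3 and Slc16a3 stand out in granulocytes, P4ha2 and Ndrg1 in fibroblasts, Car9 in tumour cells and Pfkp in dendritic cells.

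Among the transporters, the 2 glucose carriers had different distributions. Slc2a1 (GLUT1, the broadly expressed glucose transporter) was present in every class, with medians from 156 CPM in dendritic cells to 476 CPM in tumour cells (358 to 572) and 659 CPM in granulocytes (521 to 854). Slc2a3 (GLUT3, a high-affinity glucose transporter of neurons and leukocytes) had a median of 291 CPM in granulocytes (191 to 411), 63.7 CPM in T and NK cells (49.4 to 92.8) and 39.1 CPM in fibroblasts (18.3 to 64.5). In macrophages and tumour cells Slc2a3 was near its floor, with medians of 3.69 and 2.68 CPM. The lowest granulocyte library lies above the highest library of every other class named here for this gene.

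The 2 lactate carriers were nearly complementary between tumour cells and granulocytes. Slc16a3 (MCT4, which exports lactate) had a median of 1902 CPM in granulocytes (1614 to 2199), 360 CPM in macrophages (330 to 495), 223 CPM in dendritic cells and 175 CPM in fibroblasts, and 8.11 CPM in tumour cells (3.57 to 29.1). Slc16a1 (MCT1, which carries lactate in either direction) had a median of 205 CPM in tumour cells (125 to 307), 92.4 CPM in T and NK cells, 84.9 CPM in fibroblasts, 66.2 CPM in granulocytes and 65.5 CPM in macrophages. Among cells thinned to 3000 UMIs, 0.807% to 7.86% of tumour cells and 52.5% to 66.0% of macrophages in the same libraries held a UMI of Slc16a3. Shallower cells were left out, 67 to 340 tumour cells and 316 to 1047 macrophages per Total library. The highest of the tumour cell values for Slc16a3 belongs to E, and without the E tumour cells that hold a Ptprc UMI its level was 22.7 CPM instead of 29.1 CPM.

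**Figure D2:**
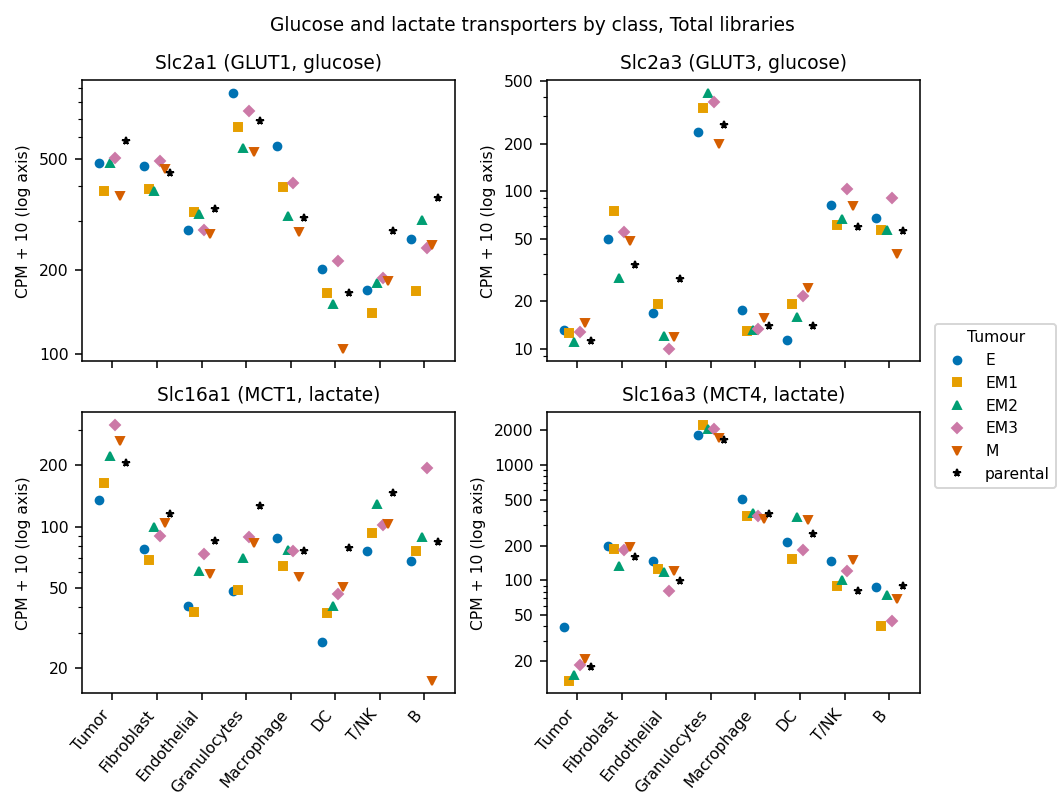
CPM + 10 on a log axis of the 4 transporters in each annotated class of the Total libraries, 1 point per tumour. Granulocytes lie highest for Slc2a3 (191 to 411 CPM) and Slc16a3 (1614 to 2199 CPM), and tumour cells lie lowest for Slc16a3 (3.57 to 29.1 CPM).

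The enzyme isoforms likewise divided by class. Hk1, the housekeeping hexokinase, was highest in endothelial cells with a median of 341 CPM (278 to 391), where Hk2, the inducible hexokinase, was lowest with 41.0 CPM (13.9 to 97.3). Hk2 was highest in fibroblasts with 567 CPM (445 to 647), followed by tumour cells with 378 CPM (270 to 426) and macrophages with 221 CPM (144 to 237), and these 3 ranges do not overlap. Of the phosphofructokinases, which catalyse the committed step, Pfkl was highest in tumour cells with 287 CPM (211 to 344). Pfkp was highest in dendritic cells with 636 CPM (377 to 857) and lowest in tumour cells with 91.03 CPM (61.7 to 142). Pfkm, the muscle form, stayed at or under a median of 18.1 CPM in every class.

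Aldoa, the main aldolase, had medians between 316 CPM in fibroblasts and 714 CPM in macrophages. Aldoc, the brain aldolase, was found in dendritic cells at 67.3 CPM, macrophages at 55.2 CPM and tumour cells at 45.8 CPM, and in the remaining classes at medians of 19.4 CPM or less. Eno2, the neuronal enolase, had its highest median in fibroblasts at 50.8 CPM (31.8 to 113), followed by macrophages at 22.3 CPM (15.5 to 28.3). Ldha, which makes lactate, had medians from 451 CPM in B cells to 899 CPM in granulocytes, and Pkm (pyruvate kinase of muscle and tumours) from 287 CPM in B cells to 783 CPM in tumour cells. Aldoa, Pgk1, Ldha, Tpi1, Pgam1 and Pkm have many processed pseudogenes, and how the counting treated reads shared with them is not given in the sources used here.

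Of the regulators, Pfkfb3, which makes the activator of phosphofructokinase, was highest in endothelial cells with 320 CPM (233 to 355) and granulocytes with 244 CPM (170 to 319), and lowest in tumour cells with 37.6 CPM (19.8 to 69.8). Its relative Pfkfb4 was highest in granulocytes with 63.5 CPM (48.1 to 84.0). Pdk1, which holds back pyruvate from mitochondria, was low everywhere, with a highest median of 21.6 CPM in tumour cells.

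The hypoxia targets led in different classes. Car9, the membrane carbonic anhydrase that acidifies the surroundings, had a median of 140 CPM in tumour cells (64.8 to 186) and of at most 20.9 CPM in every other named class. In the CD45 libraries, in which no class is annotated as tumour cells, Car9 had a median of 5.67 CPM in macrophages and 0.816 CPM in granulocytes, against 10.3 and 20.9 CPM in the Total libraries. P4ha2 and Ndrg1 (a collagen prolyl hydroxylase and a stress-induced growth regulator) were highest in fibroblasts, with 233 CPM (218 to 370) and 1466 CPM (1117 to 1766). Adm (adrenomedullin, a vasodilator peptide) and Ankrd37 (a small ankyrin repeat protein) were highest in endothelial cells, with 94.3 CPM (30.6 to 148) and 59.9 CPM (27.8 to 102). Bnip3, which directs mitochondria to autophagy, was highest in granulocytes with 43.9 CPM (28.6 to 63.0) and had medians of at most 14.5 CPM in the other named classes. Its relative Bnip3l was highest in T and NK cells with 56.3 CPM. Mxi1, an antagonist of Myc, was highest in dendritic cells with 404 CPM and macrophages with 392 CPM. Egln3, the HIF prolyl hydroxylase that HIF itself induces, was high in granulocytes at 166 CPM (115 to 224), tumour cells at 136 CPM (70.3 to 345) and T and NK cells at 122 CPM (46.7 to 335), and low in macrophages at 22.2 CPM (15.8 to 29.7).

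Tumour cells and macrophages were compared in the Total libraries to ask whether cancer cells or the main phagocytes of the same tumour carry more of this program. Tumour cells had more of the hypoxia targets Car9, Egln3 and P4ha2 and of the lactate carrier Slc16a1, and macrophages had more Slc16a3 and Mxi1. Of the 35 genes, 13 were higher and 14 were lower in tumour cells (edgeR's quasi-likelihood test, adjusted p under 0.05 over all genes tested). Over all 17280 genes tested, 33.8% were higher and 38.4% were lower, so both shares of the list are near the background. On library totals without TMM scaling these shares were 39.7% and 30.7%, and 15 and 10 of the 35 genes passed. The median log2 fold change was -0.10 over the list and -0.15 over all genes; TMM scaling moved all values of this comparison by -0.21 against library totals, on which the medians were 0.12 and 0.06. By role, 8 hypoxia targets were higher and 3 lower, 4 enzymes were higher and 7 lower, and 2 of the 3 regulators were lower.

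Fold changes here and below come from the TMM-scaled fits, while the CPM values are on plain library totals. Slc16a3 was 29.1, 3.57, 5.17, 8.51, 10.8 and 7.71 CPM in tumour cells of E, EM1, EM2, EM3, M and parental, and 495, 349, 376, 353, 331 and 367 CPM in macrophages of the same tumours. The 2 classes are far apart in all 6 tumours, with a log2 fold change of -5.67 (SE 0.30, edgeR adjusted p = 1.2e-08). Car9 was 135, 72.3, 145, 145, 64.8 and 186 CPM in tumour cells and 8.75, 7.55, 12.9, 10.5, 10.1 and 19.4 CPM in macrophages. The lowest tumour cell value exceeds the highest macrophage value, and the log2 fold change was 3.19 (SE 0.16, edgeR adjusted p = 9.9e-11). Egln3 was 125, 345, 111, 157, 146 and 70.3 CPM in tumour cells and 29.7, 29.1, 15.8, 17.9, 26.4 and 17.6 CPM in macrophages. These do not overlap either, and EM1 is the highest tumour by far; the log2 fold change was 2.46 (SE 0.23, edgeR adjusted p = 1.5e-06).

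Mxi1 was 188, 63.3, 101, 120, 98.2 and 143 CPM in tumour cells and 525, 374, 399, 456, 381 and 385 CPM in macrophages. Every macrophage value lies above every tumour cell value (log2 fold change -2.11, SE 0.18, edgeR adjusted p = 4.5e-08). P4ha2 was 54.7, 91.9, 40.7, 64.7, 78.6 and 38.3 CPM in tumour cells and 11.3, 21.7, 13.2, 17.8, 20.3 and 17.9 CPM in macrophages (log2 fold change 1.59, SE 0.15, edgeR adjusted p = 2.2e-07). Pfkm was 9.11 to 19.7 CPM in tumour cells and 2.81 to 5.96 CPM in macrophages, with no overlap (log2 fold change 1.66, SE 0.19, edgeR adjusted p = 1.6e-06). Smaller rises in tumour cells included Adm (log2 fold change 1.54), Slc16a1 (1.48), Ndrg1 (1.04), Hk1 (0.94) and Pfkl (0.92), and genes that were lower included Eno2 (-1.42), Pgk1 (-1.13), Pfkfb3 (-1.08), Slc2a3 (-1.07) and Pfkp (-0.95). Ldha, Pkm, Slc2a1, P4ha1, Ddit4, Pdk1, Ankrd37 and Aldoc did not pass the test.

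Of the lists around glycolysis, beside the 33.8% higher and 38.4% lower of all genes, the pentose phosphate pathway had 4 of 7 genes lower in tumour cells (3 also on totals), led by Taldo1 (log2 fold change -2.57), G6pdx (-1.72) and Pgd (-1.39). Respiratory chain subunits had 1 of 20 higher and 10 lower (7 also lower on totals), and genes of pyruvate entry and the TCA cycle 2 of 18 higher and 7 lower. Among 30 other genes that respond to hypoxia, 14 were higher and 10 lower, the latter led by Hilpda (-4.60), Rora (-4.37) and Hmox1 (-4.21). Of 11 regulators of the HIF pathway 3 were higher and 6 lower. Among these Epas1, which encodes the second HIF alpha subunit, was lower in tumour cells (-3.67) and Cited2, a competitor of HIF for its coactivator, was higher (2.66). Genes of dissociation and stress were higher in tumour cells for 11 of 18 and lower for 3 (median log2 fold change 1.14), as were 9 of 20 cell division genes. Of the markers of other leukocytes, 5 of 5 mast cell genes (median log2 fold change -5.34), 5 of 7 granulocyte genes (-1.04) and 5 of 7 T cell genes (-1.13) were lower in tumour cells. Dendritic cell markers had 2 of 7 higher and 4 lower, and plasmacytoid dendritic cell markers 1 of 4 higher and 2 lower. NK cell markers had 1 of 5 higher and 3 lower, and B cell markers 1 of 5 higher and 4 lower. Of 5 plasma cell markers 0 were called in either direction. The part of these lists in the values above was not tested.

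Against fibroblasts, whose sums rest on 52 to 262 cells per tumour, tumour cells had less Slc16a3, Slc2a3, Eno2 and P4ha2 and more Car9 and Aldoc. Of the 35 genes 9 were higher and 15 lower in tumour cells (edgeR's quasi-likelihood test), beside 32.2% higher and 26.9% lower of all 13193 genes tested. On library totals the background was 49.9% higher and 20.8% lower and 15 and 10 of the 35 genes passed, so the balance of the list depends on the scaling. TMM moved the values of this comparison by -0.39. The list median was -0.24 with TMM and 0.16 on totals, against 0.12 and 0.52 over all genes. The tumour cell sums are the same as in the comparison with macrophages.

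Slc16a3 was 186, 176, 123, 174, 185 and 149 CPM in fibroblasts of E, EM1, EM2, EM3, M and parental, above every tumour cell value given above (log2 fold change -4.64, SE 0.39, edgeR adjusted p = 6.2e-05). Slc2a3 was 3.17, 2.55, 1.07, 2.80, 4.62 and 1.27 CPM in tumour cells and 40.1, 64.5, 18.3, 44.8, 38.1 and 24.0 CPM in fibroblasts, again without overlap (log2 fold change -4.33, SE 0.25, edgeR adjusted p = 1.4e-07). P4ha2, one of the enzymes that hydroxylate collagen, was 223, 370, 218, 233, 290 and 233 CPM in fibroblasts and at most 91.9 CPM in tumour cells (log2 fold change -2.53, SE 0.14, edgeR adjusted p = 8.3e-08). Eno2 was 31.8 to 113 CPM in fibroblasts and 5.69 to 16.6 CPM in tumour cells (log2 fold change -2.93, SE 0.25, edgeR adjusted p = 3.9e-06). Among the rises, Car9 was 30.1, 8.80, 11.9, 23.8, 15.2 and 52.7 CPM in fibroblasts, below every tumour cell value (log2 fold change 2.08, SE 0.21, edgeR adjusted p = 1.1e-05). Aldoc was 23.4 to 71.1 CPM in tumour cells and 5.09 to 10.1 CPM in fibroblasts (log2 fold change 1.98, SE 0.20, edgeR adjusted p = 7.9e-06). Tpi1 and Gpi1 changed direction with the scaling and are not read in either direction.

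Of 18 pyruvate and TCA cycle genes 7 were higher and 1 lower in tumour cells than in fibroblasts, and of 20 respiratory chain genes 10 were higher and 1 lower, under TMM, where 32.2% of all genes were higher and 26.9% lower. The same 7 and 10 genes were higher on totals, where 49.9% of all genes were higher. Other hypoxia-responsive genes had 6 of 30 higher and 16 lower, led by the matrix cross-linking enzymes Lox (log2 fold change -10.40) and Loxl2 (-9.72) and by Tmem45a (-8.71). Cell division genes were higher in tumour cells for 19 of 19 tested. Leukocyte markers also differed between the 2 classes: 8 of 8 macrophage markers (median log2 fold change -3.03), 7 of 7 T cell markers (-2.84) and Ptprc (-2.61) were lower in tumour cells, under TMM and on totals, as were 5 of 6 granulocyte markers under TMM and 2 on totals. Of 18 dissociation and stress genes 4 were higher and 6 lower in tumour cells (median -0.35). The part of these lists in the values of the glycolysis and hypoxia genes was not tested.

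Granulocytes and macrophages, the 2 main myeloid classes, were compared in the CD45 libraries. Granulocytes had more of the transporters Slc2a3 and Slc16a3, of the regulator Pfkfb3 and of the hypoxia targets Egln3, Ankrd37 and Adm, and less P4ha2, Pfkm, Car9 and Slc16a1. Of the 35 genes 24 were higher and 7 lower in granulocytes (edgeR's quasi-likelihood test), beside 34.2% higher and 41.7% lower of the 11800 genes tested. This balance depends on the scaling: TMM moved all values by 0.73 against library totals, on which 19.9% of all genes were higher and 61.5% lower, and 16 of the 35 genes were higher and 14 lower. The list median was 0.95 with TMM and 0.21 on totals, against -0.17 and -0.90 over all genes; scaling shifts both medians alike. The glycolytic enzymes carry most of this dependence, with 10 of 14 higher under TMM and 3 of those also higher on totals, while 3 of 4 transporters were higher under both. Tpi1, Gpi1, Pgam1, Pgk1 and Ndrg1 reversed on totals.

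Slc2a3 was 249, 345, 481, 356, 232 and 388 CPM in granulocytes of E, EM1, EM2, EM3, M and parental and 4.32, 3.40, 2.52, 4.83, 2.68 and 3.54 CPM in macrophages, a log2 fold change of 7.28 (SE 0.26, edgeR adjusted p = 7.4e-10). Slc16a3 was 1938, 2748, 2862, 2244, 2007 and 2332 CPM in granulocytes and 466, 356, 442, 436, 333 and 450 CPM in macrophages, a log2 fold change of 3.25 (SE 0.16, edgeR adjusted p = 6.4e-12). The lowest granulocyte value is several times the highest macrophage value for both transporters. Egln3 was 237, 131, 91.8, 202, 93.0 and 155 CPM in granulocytes and 12.7 to 22.9 CPM in macrophages, a log2 fold change of 3.70 (SE 0.13, edgeR adjusted p = 2.0e-13). Pfkfb3 was 347, 272, 272, 327, 281 and 283 CPM in granulocytes and 52.2 to 82.1 CPM in macrophages, a log2 fold change of 2.84 (SE 0.11, edgeR adjusted p = 2.7e-13). All 6 tumours show the same separation for these 2 genes.

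Ankrd37 was 15.0 to 33.0 CPM in granulocytes and 3.10 to 5.83 CPM in macrophages (log2 fold change 3.12, SE 0.18, edgeR adjusted p = 4.3e-11), and Adm was 2.99 to 12.8 CPM and 0.733 to 2.41 CPM (log2 fold change 2.73, SE 0.31, edgeR adjusted p = 3.4e-07). The genes that were lower were P4ha2 (log2 fold change -2.33), Pfkm (-1.57), Car9 (-1.48), Slc16a1 (-1.30), Aldoc (-1.17), Eno2 (-0.84) and Ddit4 (-0.65). Mitochondrial genes went the other way from the transporters, with 15 of 18 pyruvate and TCA cycle genes and 19 of 20 respiratory chain genes lower in granulocytes, beside 41.7% of all genes. Of the HIF pathway regulators 7 of 11 were higher and 2 lower under TMM, led by Cited2 (log2 fold change 3.37), and 1 and 5 on totals. Granulocytes are cells of low UMI content (class medians of 690 to 1222 UMIs per cell in the CD45 libraries). Relative to macrophages they also had higher levels of 6 of 7 T cell markers, 4 of 4 fibroblast markers and 4 of 7 tumour markers tested. Of 18 dissociation and stress genes 12 were higher in granulocytes (7 also on totals) and 3 lower. The part of either in these values was not tested.

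Within tumour cells, the list was examined by splitting cells of each tumour on Car9, whose product is a widely used marker of hypoxic tumour regions. The promoters of Car9 and of the 6 genes of the list with the largest fold changes among those called with the same sign in every tumour are shown first, because HIF binds near the start of its targets. Each line gives the 250 bases before the gene's start, 5′ to 3′ on the gene's strand, from RefSeq on GRCm38.p6 (mm10), with each match to either HIF core, read on both strands, in capitals. The intervals are chr4:43506776-43507025 (plus strand) for Car9, chr7:138909507-138909756 (minus) for Bnip3, chr2:71872974-71873223 (plus) for Pdk1, chr6:124769674-124769923 (minus) for Eno2, chr7:110627407-110627656 (plus) for Adm, chrX:106186850-106187099 (plus) for Pgk1 and chr10:59323046-59323295 (plus) for P4ha1.
Car9: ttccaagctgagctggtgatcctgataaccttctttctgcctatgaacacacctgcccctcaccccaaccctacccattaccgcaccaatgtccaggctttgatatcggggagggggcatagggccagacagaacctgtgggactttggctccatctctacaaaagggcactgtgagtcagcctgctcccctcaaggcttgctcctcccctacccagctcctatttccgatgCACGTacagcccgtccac
Bnip3: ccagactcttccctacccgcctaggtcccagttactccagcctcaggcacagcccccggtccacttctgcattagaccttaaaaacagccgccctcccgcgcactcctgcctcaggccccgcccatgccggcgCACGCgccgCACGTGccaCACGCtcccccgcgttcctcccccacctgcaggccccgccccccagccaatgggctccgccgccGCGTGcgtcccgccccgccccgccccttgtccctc
Pdk1: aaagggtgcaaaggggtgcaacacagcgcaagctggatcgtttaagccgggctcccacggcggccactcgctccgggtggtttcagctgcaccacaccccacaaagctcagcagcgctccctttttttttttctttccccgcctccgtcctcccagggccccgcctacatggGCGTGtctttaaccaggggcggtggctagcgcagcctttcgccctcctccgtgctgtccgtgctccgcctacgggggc
Eno2: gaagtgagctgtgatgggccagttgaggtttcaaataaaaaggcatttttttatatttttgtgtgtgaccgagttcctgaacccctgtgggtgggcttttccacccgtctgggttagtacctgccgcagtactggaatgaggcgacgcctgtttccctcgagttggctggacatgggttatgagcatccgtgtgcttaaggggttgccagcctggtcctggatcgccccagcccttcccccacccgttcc
Adm: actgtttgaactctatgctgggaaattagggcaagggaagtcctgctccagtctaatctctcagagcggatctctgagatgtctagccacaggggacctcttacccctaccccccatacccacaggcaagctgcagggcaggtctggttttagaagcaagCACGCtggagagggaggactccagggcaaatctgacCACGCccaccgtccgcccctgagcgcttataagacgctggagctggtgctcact
Pgk1: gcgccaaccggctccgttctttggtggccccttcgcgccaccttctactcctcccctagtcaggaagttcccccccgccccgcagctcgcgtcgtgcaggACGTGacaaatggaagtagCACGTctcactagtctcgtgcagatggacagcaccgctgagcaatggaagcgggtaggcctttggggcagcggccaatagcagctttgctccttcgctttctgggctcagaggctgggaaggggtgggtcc
P4ha1: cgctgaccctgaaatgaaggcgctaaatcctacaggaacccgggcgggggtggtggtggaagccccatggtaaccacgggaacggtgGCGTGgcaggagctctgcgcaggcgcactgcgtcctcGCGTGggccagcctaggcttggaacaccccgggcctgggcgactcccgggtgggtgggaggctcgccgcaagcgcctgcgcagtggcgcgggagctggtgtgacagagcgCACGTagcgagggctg

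The Car9 stretch holds 1 match, Bnip3 holds 5, Pdk1 1, Adm 2, Pgk1 2 and P4ha1 3, while Eno2 holds none of these letters in this window. Promoters were found for 34 of the 37 listed genes. Overlapping matches were counted separately, and a gene with several starts took the start with the most matches. At least 1 match was present in 31 of these 34 (91.2%), against 41.5% of 27025 genes with a promoter in the table and 61.4% of the 9253 genes with a promoter that entered the test below. At least 3 matches were present in 10 of the 34 (29.4%) and in 7.54% of all genes. Of the 23 genes of the list with a promoter that were higher in Car9-positive cells, 20 (87.0%) held a match, a share no higher than that of the list as a whole. A match is a description of the letters and not evidence of binding.

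Each tumour cell of the Total libraries was thinned to 3000 UMIs and called Car9-positive where the thinned counts held a UMI of Car9. Between 67 and 340 shallower cells per tumour were left out, with 117 of 753 in E. Positive cells were least frequent in M, with 13.3% (exact 95% interval 12.3 to 14.3), and in EM1, with 15.7% (14.3 to 17.1). They made up 26.4% in EM3 (24.4 to 28.4), 26.9% in E (23.5 to 30.5) and 30.8% in EM2 (29.2 to 32.4), and were most frequent in the parental tumour with 35.4% (34.1 to 36.7). Without thinning the shares ran from 30.01% to 69.7%. Macrophages thinned alike, shallower cells again left out, held a Car9 UMI in 2.13% to 6.02% of cells in the Total libraries. In the CD45 libraries the share was 1.04% to 1.96%. All 6 tumour cell shares lie above the macrophage level of the Total libraries.

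Car9-positive tumour cells had higher levels of genes for mitochondrial removal (Bnip3), pyruvate diversion (Pdk1), glycolytic steps (Eno2, Pgk1) and collagen hydroxylation (P4ha1). Of the 34 genes tested besides Car9, 25 were higher and 0 lower (edgeR's quasi-likelihood test; at an unadjusted p under 0.05, 1 gene, Pfkfb3, was lower, and DESeq2 called 22 higher and 0 lower). Of all 11682 genes tested, 2.77% were higher and 2.36% lower, or 324 and 276 genes. The median log2 fold change was 0.53 over the list and 0.00 over all genes, and on library totals 24 of the 34 were higher. By role 11 of 14 enzymes, 3 of 4 transporters, 10 of 13 hypoxia targets and 1 of 3 regulators were higher. Without the tumour as a block 0 genes of the list were called, with fold changes of similar size (Bnip3 1.49, Pdk1 1.03, Pgk1 0.82 and P4ha1 0.82).

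Bnip3 was 17.5, 32.7, 17.9, 23.2, 41.3 and 20.01 CPM in Car9-positive cells of E, EM1, EM2, EM3, M and parental and 4.30, 7.597, 7.03, 9.27, 15.9 and 9.46 CPM in Car9-negative cells. The positive cells were higher in all 6 tumours, with a log2 fold change of 1.42 (SE 0.13, edgeR adjusted p = 3.2e-13). Pdk1 was 33.1, 43.3, 27.5, 26.6, 75.4 and 44.5 CPM against 19.4, 24.0, 12.8, 13.9, 37.0 and 17.7 CPM, a log2 fold change of 1.11 (SE 0.09, edgeR adjusted p = 7.9e-16). M is highest on both sides for these 2 genes; across tumours the positive and negative values overlap for Pdk1 but not for Bnip3. Eno2 was 19.5, 29.4, 16.9, 23.9, 15.6 and 10.9 CPM against 5.74, 11.1, 8.56, 14.4, 6.42 and 5.99 CPM, a log2 fold change of 1.08 (SE 0.14, edgeR adjusted p = 9.5e-08).

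Adm was 42.9, 4.90, 12.4, 25.2, 20.1 and 6.16 CPM against 25.1, 0.760, 5.66, 11.2, 9.16 and 4.68 CPM, a log2 fold change of 1.00 (SE 0.17, edgeR adjusted p = 1.8e-05). Its level varied far more between tumours than between the 2 kinds of cell. Pgk1, which makes the first ATP of glycolysis, was 99.4, 150, 122, 159, 139 and 130 CPM against 59.5, 81.7, 83.9, 86.1, 59.9 and 86.7 CPM, a log2 fold change of 0.80 (SE 0.07, edgeR adjusted p = 6.4e-07). P4ha1 was 216, 259, 299, 384, 631 and 365 CPM against 132, 163, 184, 207, 313 and 241 CPM, a log2 fold change of 0.79 (SE 0.05, edgeR adjusted p = 4.8e-17). For Pgk1 the lowest positive value exceeds the highest negative value.

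The other called genes of the list were P4ha2 (log2 fold change 0.72), Higd1a (0.68), Aldoa (0.68), Ankrd37 (0.68), Egln1 (0.66), Tpi1 (0.58), Slc2a1 (0.56), Pfkl (0.55), Ldha (0.55), Aldoc (0.52), Gpi1 (0.49), Bnip3l (0.42), Pgam1 (0.38), Pfkp (0.38), Egln3 (0.37), Pkm (0.32), Kdm3a (0.26), Slc16a1 (0.15) and Slc2a3 (1.08), which rests on 4.45 against 2.25 CPM and was not higher in every tumour. The calls of Slc2a1, Slc2a3, Slc16a1, Kdm3a and Ankrd37 were lost under several alternatives. Pkm was not called without E (edgeR adjusted p = 0.071) or without EM3 (0.10), Egln1 not without M (0.098), and Pfkp (0.061) and Adm (0.057) not at 1500 UMIs per cell. Ndrg1 was 1296, 1215, 1111, 1496, 1199 and 1032 CPM in positive cells and 1188, 583, 711, 754, 376 and 707 CPM in negative cells, higher in 6 of 6 tumours, but with an edgeR adjusted p of 0.095 (log2 fold change 0.88; DESeq2 adjusted p = 0.0055). Hk1, Hk2, Ddit4, Mxi1 and Pfkm had log2 fold changes of 0.07, 0.01, 0.01, 0.08 and 0.08 and were not called, and Pfkfb3 had -0.24 (edgeR adjusted p = 0.10). Mxi1 passed the test with doublets kept (log2 fold change 0.18, edgeR adjusted p = 0.038) and at 1500 UMIs per cell (0.26, adjusted p = 0.045). When cells were split by a UMI of Egln3 instead, Ddit4 was higher (log2 fold change 0.63, edgeR adjusted p = 3.4e-08) and Pfkfb3 had the opposite sign (0.36), with 22 genes of the list higher beside 4.47% of all genes. Hk1 was also higher in that split (0.13, edgeR adjusted p = 0.043). In that split Pgk1 (0.16, edgeR adjusted p = 0.071), Aldoa (0.13, adjusted p = 0.059), Pkm (0.098, adjusted p = 0.18) and Bnip3l (0.15, adjusted p = 0.20) were not called, nor were Slc16a1, Slc2a3 and Kdm3a, and P4ha1 was higher by 0.30. A split by Ndrg1 gave 25 higher beside 8.26%, with Egln3 (0.11, adjusted p = 0.62), Ankrd37 (0.43, adjusted p = 0.11), Slc16a1 and Slc2a3 not called. Hk2 (0.21, edgeR adjusted p = 0.0058), Mxi1 (0.38, adjusted p = 2.6e-06) and Pfkfb4 (0.36, adjusted p = 0.029) were higher in the Ndrg1 split. Egln3 was also not called without thinning (0.23, adjusted p = 0.12).

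**Figure D3:**
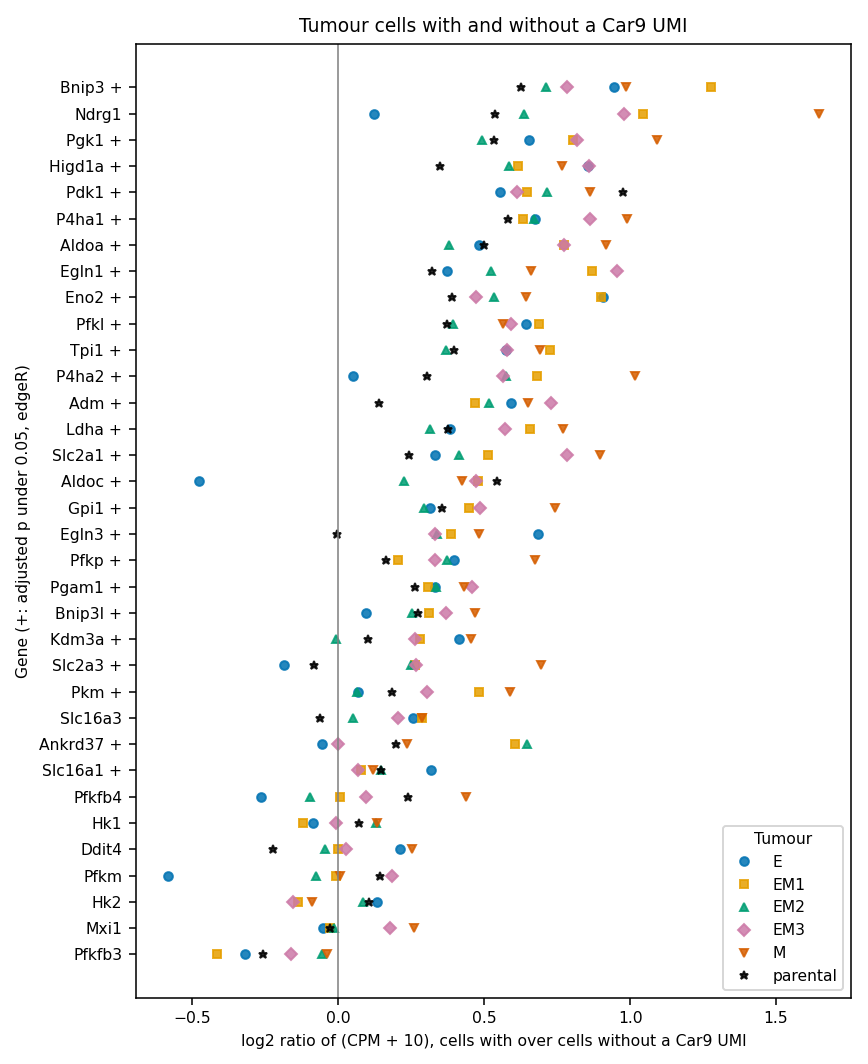
For each of 34 genes, 6 points give the log2 ratio of CPM + 10 in Car9-positive over Car9-negative tumour cells thinned to 3000 UMIs, 1 point per tumour; a plus marks edgeR adjusted p under 0.05. The points of P4ha1, Pgk1, Pdk1 and Bnip3 lie above 0 in all 6 tumours, and those of Hk2 lie between -0.15 and 0.13.

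Outside the list, the 10 genes with the largest rises among those of at least 50 CPM were Ero1l (log2 fold change 1.27, 438 against 176 CPM), Plod1 (0.98), Fam162a (0.88, 309 against 170 CPM), Pgm1 (0.74), Zfp395 (0.57), Ackr3 (0.56), Mif (0.55, 328 against 222 CPM), Plod2 (0.50), Atf5 (0.45) and Trappc6a (0.42). Ero1l oxidises proteins in the endoplasmic reticulum, Plod1 and Plod2 hydroxylate collagen lysines and Pgm1 links glycogen to glycolysis. All but Plod1, which was lower in E (17.5 against 19.4 CPM), were higher in 6 of 6 tumours. The 5 largest falls were Krt19 (-0.79, 78.7 against 146 CPM), Cxcl10 (-0.57) and the histone genes Hist1h2ae (-0.52), Hist1h2bn (-0.50) and Hist1h2ap (-0.48). Only Hist1h2ap was lower in every tumour. Krt19, Cxcl10 and Hist1h2bn were higher in 1 of 6 tumours and Hist1h2ae in 2, and the Krt19 means rest largely on E (308 against 581 CPM). Other hypoxia-responsive genes were higher for 15 of 27 tested, and 3 of 9 genes of gluconeogenesis and glycogen were higher, beside 2.77% higher and 2.36% lower of all genes. Those 3, Pgm1, Gbe1 and Gys1, are also among the other hypoxia-responsive genes, so the 2 counts are not separate. Of 19 cell division genes 10 were lower, led by Mcm3 (-0.46), Rrm2 (-0.46) and Mcm6 (-0.44). Of 18 pyruvate and TCA cycle genes edgeR called 1 lower, and of 20 respiratory chain genes 0, with 4 and 3 lower at an unadjusted p under 0.05 and 0 called by DESeq2 in either list.

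The granulocyte markers in Car9-positive cells summed to between 211 and 3353 CPM over the 6 tumours with a median of 369 CPM, and in Car9-negative cells to between 237 and 951 CPM with a median of 329 CPM. Macrophage markers summed to a median of 186 CPM in positive and 178 CPM in negative cells, and Ptprc to 2.74 and 5.37 CPM. edgeR called 0 of 8 macrophage and 0 of 6 granulocyte markers tested, with 1 and 0 higher at an unadjusted p under 0.05, and DESeq2 called 0 of either.

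In CD8 T cells of the CD45 libraries, the cytotoxic Gzmb+ subtype was compared with the Lef1+ subtype, whose name gene marks naive and memory cells; the parental tumour had 8 Gzmb+ cells, under the minimum of 20, leaving 5 tumours. Gzmb+ cells had more Slc2a3, Mxi1, Ddit4 and Hk1. Of the 25 genes of the list that passed the low-count filter, 4 were higher and 0 lower (edgeR's quasi-likelihood test; at an unadjusted p under 0.05, Kdm3a and Egln3, 2 genes, were lower, and DESeq2 called 2 higher and 0 lower). Over the 7247 genes tested, 7.33% were higher and 8.87% lower, and the median log2 fold change was 0.04 over the list and 0.00 over all genes. Without E, or without EM3, 2 genes were higher. Of the markers tested, 4 of 7 macrophage genes and Ptprc were lower and 6 of 7 T cell genes higher in Gzmb+ cells, as were 2 of 18 dissociation and stress genes, with 8 lower, and their part in these values was not tested.

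Mxi1 was 716, 544, 540, 517 and 408 CPM in Gzmb+ cells of E, EM1, EM2, EM3 and M and 394, 289, 219, 385 and 214 CPM in Lef1+ cells, with no overlap (log2 fold change 0.83, SE 0.13, edgeR adjusted p = 6.5e-05). Slc2a3 was 83.9, 111, 94.8, 110 and 114 CPM against 79.4, 13.4, 16.8, 54.1 and 24.7 CPM (log2 fold change 1.06, SE 0.28, edgeR adjusted p = 0.015). The 2 subtypes hardly differ for Slc2a3 in E, and without EM3 the adjusted p was 0.084. Hk1 was 213, 227, 218, 217 and 228 CPM against 181, 134, 126, 190 and 107 CPM (log2 fold change 0.46, SE 0.15, edgeR adjusted p = 0.035), a call that DESeq2 did not make (adjusted p = 0.15) and that was lost on leaving out E, EM1, EM2 or M (edgeR adjusted p = 0.055, 0.13, 0.096 and 0.081). Ddit4, an inhibitor of mTOR signalling, had a log2 fold change of 0.69 (edgeR adjusted p = 0.0057), was higher in 4 of 5 tumours and was not called by DESeq2 (adjusted p = 0.11), nor by edgeR without E (adjusted p = 0.085) or without EM3 (0.13).

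Between tumours, the tumour cells of E had the lowest mean enzyme level and the highest Ndrg1, Ddit4 and Adm. E also had the fewest and shallowest tumour cells, 753 with a median of 6441 UMIs per cell. The other tumours had 1922 to 5849 tumour cells with medians of 9669.5 to 15279 UMIs. Shares of tumour cells with a UMI were also taken at equal depth, with cells thinned as for the Car9 split and shallower cells left out. For Ldha the share was 59.1% in E and 80.1% to 89.0% in the other tumours. For Ndrg1 it was 84.7% in E and 52.7% to 78.6% in the others, and for Adm 6.45% and 0.31% to 2.91%. For Ddit4 it was 33.8% in E, below the 37.1% of EM2. Beyond such shares, the part of depth in the values of E was not tested. The role mean of the glycolytic enzymes was 7.09 in E and 7.54 to 7.55 in the other 5 tumours. Ldha was 388 CPM in E (95% Poisson interval 371 to 406), between 699 and 913 in EM1, EM3, EM2 and the parental tumour, and 1034 in M (1027 to 1042). Aldoa was 289, 494, 527, 608, 733 and 689 CPM in tumour cells of E, EM1, EM2, EM3, M and parental, and Pkm 509, 787, 942, 778, 780 and 816 CPM. E is the lowest tumour for each of these 3 enzymes and for 8 of the 12 glycolytic enzymes with at least 50 CPM in some tumour. M is the highest for 6 of the 12 and the lowest for 3.

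The hypoxia targets had no common order across tumours: of the 11 with at least 50 CPM, E was highest for 4 and lowest for 3, and M highest for 2 and lowest for 3. Ndrg1 was 1282 CPM in E (1251 to 1314), 643, 787, 927, 435 (430 to 440 in M) and 777 CPM in the same order. Ddit4 was 295 CPM in E (280 to 310), 129, 240, 86.7, 82.5 (80.3 to 84.7 in M) and 117 CPM. P4ha1, by contrast, was 158, 177, 204, 250, 327 and 269 CPM, lowest in E and highest in M. Car9 was lowest in M at 64.8 CPM (62.9 to 66.8) and EM1 at 72.3 CPM, 135 CPM in E (125 to 145), 145 CPM in both EM2 and EM3, and highest in the parental tumour at 186 CPM (184 to 189). Adm, under 50 CPM in every tumour, ran from 1.05 CPM in EM1 to 36.1 CPM in E.

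Of the genes of the list with at least 50 CPM in E or M, 4 of 26 were more than 2-fold higher in M, namely Ldha (log2 ratio of CPM + 10 of 1.39), Aldoa (1.31), Aldoc (1.03) and P4ha1 (1.01), and 3 were more than 2-fold lower, namely Ddit4 (-1.72), Ndrg1 (-1.54) and Pfkfb4 (-1.49). Of all 5527 genes at that level, 6.55% were past 2-fold higher and 8.03% lower. For EM3 over E, 3 of 25 were higher, namely Slc16a1 (1.23), Aldoa (1.05) and Ldha (1.05), and 2 lower, Ddit4 (-1.66) and Pfkfb4 (-1.04), beside 3.83% and 6.69% of 5306 genes. Between the highest and the lowest of the 6 tumours, 14 of 27 genes of the list spanned more than 2-fold, beside 25.0% of 5820 genes, with a median log2 range of 1.01 over the list and 0.70 over all genes. No test is possible, and E is also the tumour whose annotated tumour cells carry the most leukocyte RNA. Without the tumour cells that hold a Ptprc UMI the E levels were 1271 CPM for Ndrg1, 298 CPM for Ddit4, 53.9 CPM for Pfkfb4, 383 CPM for Ldha and 281 CPM for Aldoa, close to those with them. The summed respiratory chain genes were lower in E too, with 1773 CPM against 2656 to 2970 CPM in the other tumours, and its dissociation and stress genes had the highest sum, 22508 CPM against 15635 to 21201 CPM.

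**Figure D4:**
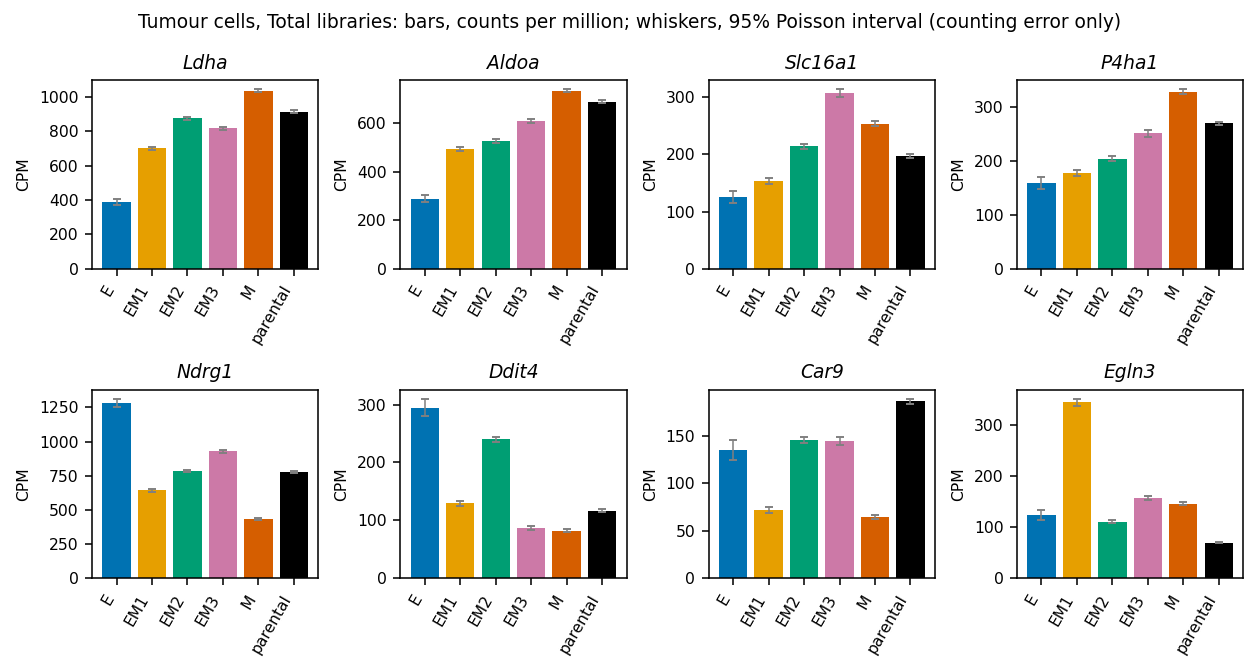
CPM of 8 genes in the annotated tumour cells of each tumour, with bars from 0 and exact 95% Poisson intervals that cover counting error only. Ldha, Aldoa and P4ha1 are lowest in E and highest in M, Ndrg1 and Ddit4 are highest in E, and Egln3 is highest in EM1 at 345 CPM.

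Macrophages varied less between tumours. In the CD45 libraries 0 of 23 genes of the list were past 2-fold in either direction in M over E, beside 3.21% higher and 3.64% lower of 4209 genes, and 0 of 23 in EM3 over E, beside 0.602% and 0.681% of 3820 genes. Between the highest and the lowest tumour, 1 of 24 genes spanned more than 2-fold, Ddit4, beside 10.3% of 4357 genes, although the median log2 range was 0.60 over the list and 0.42 over all genes. Ddit4 was 137, 107, 192, 169, 237 and 287 CPM in macrophages of E, EM1, EM2, EM3, M and parental. Its order differs from that in the tumour cells, where E was highest. Slc2a1 was 555, 398, 334, 480, 278 and 326 CPM and Ndrg1 534, 345, 357, 396, 289 and 370 CPM, both highest in E and lowest in M. In the Total libraries the E macrophages stood apart in their macrophage markers, which summed to 12014 CPM against 20340 to 23248 CPM in the other tumours, and had the highest sum of granulocyte markers, 1516 CPM against 249.9 to 1466 CPM. In the CD45 libraries the enzyme mean of macrophages was 7.47, 7.40, 7.32, 7.49, 7.43 and 7.58 in the same tumour order, and in the Total libraries 7.47 in E within 7.35 to 7.603 over the 6 tumours. In neither kind of library were E macrophages the lowest in this mean, unlike the E tumour cells.

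The macrophage sums of the CD45 and Total libraries of the same tumours were compared as well; the class names come from separate annotations of the 2 kinds of library. Car9 was 4.93, 6.43, 6.23, 5.05, 5.11 and 6.63 CPM in the CD45 libraries of E, EM1, EM2, EM3, M and parental and 8.75, 7.55, 12.9, 10.5, 10.1 and 19.4 CPM in the Total libraries, lower in all 6 (log2 fold change -0.81, SE 0.11, edgeR adjusted p = 3.3e-05). Mxi1 (log2 fold change 0.39, SE 0.06), Slc2a1 (0.29) and Pgam1 (0.27) were higher in the CD45 libraries, but on library totals Pgam1 was not called (0.084, edgeR adjusted p = 0.065). Of the 35 genes 17 were higher and 2 lower, Car9 and P4ha2 (edgeR's quasi-likelihood test), beside 23.9% higher and 20% lower of 15097 genes. On library totals 3 and 7 of the 35 passed, beside 3.77% and 36.9% of all genes, TMM having moved all values by 0.19, so the count of higher genes rests on the scaling. Without EM1, EM2, EM3 or M the count of lower genes was 1, Car9. In the same comparison 7 of 8 tumour markers (median log2 fold change -4.62) and 8 of 8 fibroblast markers were lower in the CD45 libraries. So were 5 of 5 mast cell markers (median -6.86) and 19 of 20 cell division genes (median -2.13), so the macrophage classes of the 2 kinds of library differ in more than these genes. The part of these lists in the values above was not tested.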

How the data were processed

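UMI counts per gene and cell in 12 droplet libraries of 6 mouse tumours were analysed. The authors deposited raw UMI counts with cell annotations; Cell Ranger and the build mm10 are named per the submitters' processing notes, without versions. Per the labels' protocols both a fixed RNA kit and 3′ reagents were used, so the chemistry is not settled here. Doublets were called with Scrublet in scanpy 1.11.5 (3481 of 115612 cells, 3.01%, removed).

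Counts were summed per annotated class and library where at least 20 cells were present and tested with edgeR 4.0.16 (R 4.3.3; quasi-likelihood test, TMM, filterByExpr, Benjamini-Hochberg over all genes tested) with the tumour as a block, since both sums of a pair come from the same animal. DESeq2 1.42.0 was an alternative, with scaling by library totals, no low-count filter, doublets kept and each tumour left out. The tests were checked on simulated counts. For the Car9 comparison each tumour cell of at least 3000 UMIs was thinned to 3000 UMIs, and Car9 was left out of the counts. Differences between tumours are ratios of CPM + 10 among genes of at least 50 CPM, called past 2-fold. Floors for counts of 0 use 3 counts. The 6 genes of the list with the largest fold change among those called with the same sign in every tumour are given in full, outside genes by the 10 largest rises and 5 largest falls of at least 50 CPM. The members and lists were chosen with earlier results of these data known.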

Additional observations from a re-analysis of the deposited data

Results flagged for a closer look

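Of 100 sets of 6 tumours examined, 5 held 1 tumour farther from the others than the range of the set allows at the 95% level, a number that chance alone would give at about 1 in 20. The tumours are of different lines, so a value that stands apart need not be an error. Egln3, the oxygen-sensing hydroxylase, was highest in the tumour cells of EM1 at 345 CPM, against 70.3 to 157 CPM in the other tumours, and 53.5% of EM1 tumour cells thinned to 3000 UMIs held a UMI of it, against 17.2% to 32.0%. Pfkfb4 was highest in the tumour cells of E at 53.5 CPM, against 12.7 to 22.7 CPM; it was 53.9 CPM without the E tumour cells that hold a Ptprc UMI. Pgk1 was highest in parental macrophages of the CD45 libraries at 215 CPM, against 144 to 167 CPM. Mxi1 was lowest in granulocytes of M at 179 CPM, against 249 to 276 CPM in the CD45 libraries of the other tumours. The mean of the list in Cd44- CD4 T cells was lowest in M at 5.89, against 6.06 to 6.13. That M sum held 41 cells and 56061 UMIs, the fewest of the 6 tumours, and the part of depth in its mean was not tested.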

How the results depend on the processing

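Of 194 alternatives for 23 results, 174 gave a count of genes or a module difference of similar size, 13 were weaker, 3 stronger and 4 moved. Similar size was enough here, so single calls could still be lost. Of 427 alternatives for 45 single-gene results, which include the 13 that reversed, 389 kept the direction and side of the threshold. Those genes are the ones with the largest fold changes of each comparison and the ones that reversed. On library totals alone, chosen after seeing the data, 15 genes of the list were higher in tumour cells than in fibroblasts, 14 lower in granulocytes than in macrophages, and 3 higher and 7 lower in macrophages of CD45 against Total libraries. The same scaling turned Tpi1 (0.35) and Gpi1 (0.38) against fibroblasts, Tpi1 (-0.062), Gpi1 (-0.29), Ndrg1 (-0.53), Pgam1 (-0.45) and Pgk1 (-0.33) in granulocytes, and Hk2 (-0.045), Egln1 (-0.0038), Pkm (-0.033), Pfkl (-0.14) and Pgk1 (-0.034) in CD45 macrophages. Splitting tumour cells by Egln3 turned Pfkfb3 (0.36). Without the replicate block by tumour, 5 genes were higher against fibroblasts, 0 higher in Car9-positive cells, and 0 higher and 1 lower in CD45 macrophages; the cause was not tested, and the pairing comes from the design, both sums being of the same tumour. DESeq2 called 2 genes higher in Gzmb+ cells and 1 lower in CD45 macrophages. Leaving out each tumour gave 2 to 4 genes higher in Gzmb+ cells and 1 to 3 lower in CD45 macrophages. The module difference of tumour cells and macrophages was 0.24 without the 6 genes with many pseudogenes, and that of granulocytes and macrophages 0.43 as a mean of CPM per cell, against 0.33. In macrophages of M over E, 1 gene was past 2-fold lower in the Total libraries and 1 with log2(CPM + 1). Depth limits genes of few CPM most in the small classes (fibroblasts of EM1, 52 cells).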

Other observations

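Within T cells the list differed by subtype. In the CD45 libraries the mean log2(CPM + 10) of the 35 genes had a median of 6.64 in Foxp3+ CD4 T cells (6.51 to 6.79 over the tumours), 6.29 in Gzmb+ CD8 T cells (6.16 to 6.39), 6.13 in Lef1+ CD8 T cells (5.98 to 6.29) and 6.07 in Cd44- CD4 T cells (5.89 to 6.13). Cd44+ CD4 T cells had 6.45 (6.32 to 6.55) and the Mki67+ subtype of CD8 and CD4 T cells 6.56 (6.46 to 6.62, 4 tumours). The Foxp3+ range overlaps those of these last 2 subtypes and lies above those of the Gzmb+, Lef1+ and Cd44- subtypes. Cells of the class annotated as Unknown in the Total libraries had a median of 6.79 (6.73 to 6.85) over the 3 tumours with at least 20 of them. EM1 and EM2 held 17 and 18 such cells, under that minimum.

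Egln3 was also high in T cells of the M tumour. It was 446 CPM in T cells of the M CD45 library (95% Poisson interval 407 to 488), and 71.7 to 133 CPM in those of the other tumours. The joint T and NK class of the Total libraries gave the same order for M, with 335 CPM (311 to 360) against 46.7 to 154 CPM. The 2 libraries repeat the measurement of 1 tumour and not the tumour.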
